A study of Mus musculus with 32 samples.

Results

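The genes described here are 38 genes of DNA replication and S phase. They were chosen by name: each probe whose gene name on the array is a listed symbol was taken, and where a gene had several probes the one with the highest mean brightness over the 32 arrays stood for it. All 38 symbols were found, among 35019 gene names on the array, with 28 of them carried by 1 probe. Of the 38, 37 passed the filter on dim probes in both parts of the study. The exception was Ccne2, the second E-type cyclin, whose probe was well above background on 1 of 32 arrays, so that no level is given for it in any sample.

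The arrays compared mouse B cell lymphomas that lack ATM, the kinase that signals DNA double-strand breaks, with B cells from mice. The lymphoma group held 9 cell lines of the genotype ATMKO.CD3epsilonKO, in which Atm and the T cell receptor component CD3 epsilon are both knocked out. The splenic B cells came from ATMKO.CD3epsilonKO and ATMWT.CD3epsilonKO mice, so that the CD3 epsilon knockout was shared by lymphomas and splenic controls. They were untreated (1 sample of each genotype) or cultured with 15 ug/ml goat antibody to mouse IgM, which engages the B cell receptor, for 3 h (1 ATMKO sample), 6 h (1 sample of each genotype) or 24 h (1 ATMKO sample). For the 6 h ATMWT array the protocol text gives both 3 and 6 hours, and the 6 h of its title and source name was used. Germinal center (GC) B cells came from ATMWT mice immunized with sheep red blood cells and formed 1 sample on 3 arrays; their labels name no CD3 epsilon knockout. Each of these 16 samples was set against the same pool of RNA from splenic B cells, tumors and GC B cells. In a second part, 2 further ATMKO.CD3epsilonKO lymphoma lines, 178119 and 28545, were exposed to 100 nM PCI-32765, an inhibitor of the kinase BTK, for 1, 3, 6 or 24 h, and each sample was set against the same line kept in DMSO for the same time. The age of the mice, the number of mice per sample and whether a line is a single clone are not given in the sources used here, so p-values measure the spread between these samples.

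DNA replication starts at origins that are licensed in G1, when the origin recognition complex, Cdc6 and Cdt1 load the MCM helicase, and geminin later blocks further loading. In S phase Cdc45, the GINS complex and Mcm10 turn the loaded helicase into an active fork, polymerases copy the strands, the PCNA clamp and its loader hold them on the template, and Fen1 and Lig1 finish the lagging strand. Many of these genes are targets of E2F transcription factors. Resting splenic B cells are mostly outside the cell cycle, whereas GC B cells divide quickly and engagement of the B cell receptor can start entry into the cycle.

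The promoters of several members are printed to show where motif matches lie in them. Whether the motifs bear on the changes described below was not tested. RefSeq promoters (build GRCm38.p6) were matched for 32 members; Mcm4, Gins1, Gins2, Pole, Ccne2 and Gmnn had no entry. Each window held 250 bases before the start and 50 after it, and was searched on both strands for the E2F motifs TTTCCCGC, TTTCGCGC, TTTGCCGC and TTTGGCGC, for the CHR motif TTTGAA and for CCAAT. An E2F match was present in 12 of 32 member promoters (37.5%) and in 2.32% of 27025 promoters of all genes. A CCAAT match was present in 17 members (53.1%, against 37.9% of all promoters), and a CHR match in 4 (12.5%, against 18.1%). Matches are letters in a window and not measured binding sites. The 200 bases before the start follow for 5 genes with an E2F match there, for Rrm2, which had only a CCAAT match, and for Ung, which had none of the 3 motifs and ran opposite to most members below. Capitals mark the matches, read on the gene's own strand, so that GCGCGAAA, GCGGGAAA and GCGCCAAA are E2F motifs of the other strand and ATTGG is CCAAT of the other strand.
Mcm5 (chr8:75109309-75109508, + strand): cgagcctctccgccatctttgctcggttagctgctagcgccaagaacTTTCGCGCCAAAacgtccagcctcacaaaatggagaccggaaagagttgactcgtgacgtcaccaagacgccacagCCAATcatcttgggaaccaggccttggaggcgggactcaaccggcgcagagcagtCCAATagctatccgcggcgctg
Mcm6 (chr1:128359706-128359905, - strand): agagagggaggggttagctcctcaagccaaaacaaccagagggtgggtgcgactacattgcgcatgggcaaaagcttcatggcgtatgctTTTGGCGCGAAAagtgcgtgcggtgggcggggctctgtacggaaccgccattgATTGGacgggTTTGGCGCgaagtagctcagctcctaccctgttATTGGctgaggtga
Cdc6 (chr11:98907951-98908150, + strand): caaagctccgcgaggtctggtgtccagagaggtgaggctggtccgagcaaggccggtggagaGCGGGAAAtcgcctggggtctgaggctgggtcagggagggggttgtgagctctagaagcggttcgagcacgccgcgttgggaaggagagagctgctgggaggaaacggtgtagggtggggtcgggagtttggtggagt
Orc1 (chr4:108579254-108579453, + strand): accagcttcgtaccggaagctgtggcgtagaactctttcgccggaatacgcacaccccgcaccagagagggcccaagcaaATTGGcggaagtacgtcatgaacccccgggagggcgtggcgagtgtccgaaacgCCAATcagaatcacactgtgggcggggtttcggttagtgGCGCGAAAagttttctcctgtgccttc
Pola1 (chrX:93632156-93632355, - strand): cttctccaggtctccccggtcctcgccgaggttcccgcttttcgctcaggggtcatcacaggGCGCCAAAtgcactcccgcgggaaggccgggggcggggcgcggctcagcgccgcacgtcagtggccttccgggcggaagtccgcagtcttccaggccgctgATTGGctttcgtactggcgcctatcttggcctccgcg
Rrm2 (chr12:24708054-24708253, + strand): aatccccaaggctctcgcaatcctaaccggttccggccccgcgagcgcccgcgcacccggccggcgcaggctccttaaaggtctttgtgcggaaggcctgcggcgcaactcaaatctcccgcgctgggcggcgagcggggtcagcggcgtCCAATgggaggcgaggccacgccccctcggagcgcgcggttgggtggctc
Ung (chr5:114130235-114130434, + strand): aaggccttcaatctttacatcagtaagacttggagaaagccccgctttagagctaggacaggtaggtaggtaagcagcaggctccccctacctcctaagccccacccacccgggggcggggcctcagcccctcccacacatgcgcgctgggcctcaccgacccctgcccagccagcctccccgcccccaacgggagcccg
In Mcm5 and Mcm6 a pair of E2F matches on opposite strands shares letters in 1 unbroken run. The 12 members with an E2F match and the 20 without one had median differences of 0.95 and 1.14 (log2) between lymphoma lines and untreated B cells, and of -0.50 and -0.61 after 24 h of PCI-32765 relative to DMSO.

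Values are log2 ratios of a sample to the pool, or of PCI-32765 to DMSO, after loess normalization within each array. A gene is called where limma's adjusted p, taken over all genes tested, was below 0.05. Between 45.6% and 60.7% of spots were well above background in the sample channel on 29 of the 32 arrays. The exceptions were the first array of the GC sample (29.4%), the first array of line 1039 (21.9%) and the 24 h array of line 28545 (85.5%). The first GC array lacked values for 9 members and correlated at r = 0.09 with each of the other GC arrays over 18515 probes, whereas those correlated at 0.99 with each other. In the 1 h array of line 178119, 11 members had no value. The Atm probe read between -1.54 and -0.51 in the lymphoma lines and between -0.98 and -0.34 in the 4 ATMKO splenic samples, and 0.42, 0.63 and 0.65 in untreated ATMWT, anti-IgM 6 h ATMWT and GC cells. The Cd3e probe was well above background on all 32 arrays, at 0.98 and 0.79 in untreated ATMWT and ATMKO cells, between -0.64 and 1.15 in the lymphoma lines and at -1.84 in GC cells, and so did not follow the genotype labels. Whether it lies in the deleted part is not given in the sources used here. The B cell markers Cd79a, Cd79b, Ms4a1, Pax5 and Cd22 were well above background on all splenic and PCI-32765 arrays and on at least 11 of 12 lymphoma arrays. Neutrophil markers (6 genes, S100a8, S100a9, Ltf, Ngp, Camp and Elane) had a median of 1.40 in untreated splenic B cells against -5.40 in the lymphoma lines, and erythroid markers (5 genes) 1.67 against -2.28. Fewer cells of a type and less RNA per cell cannot be told apart in such bulk samples.

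**Figure D1:**
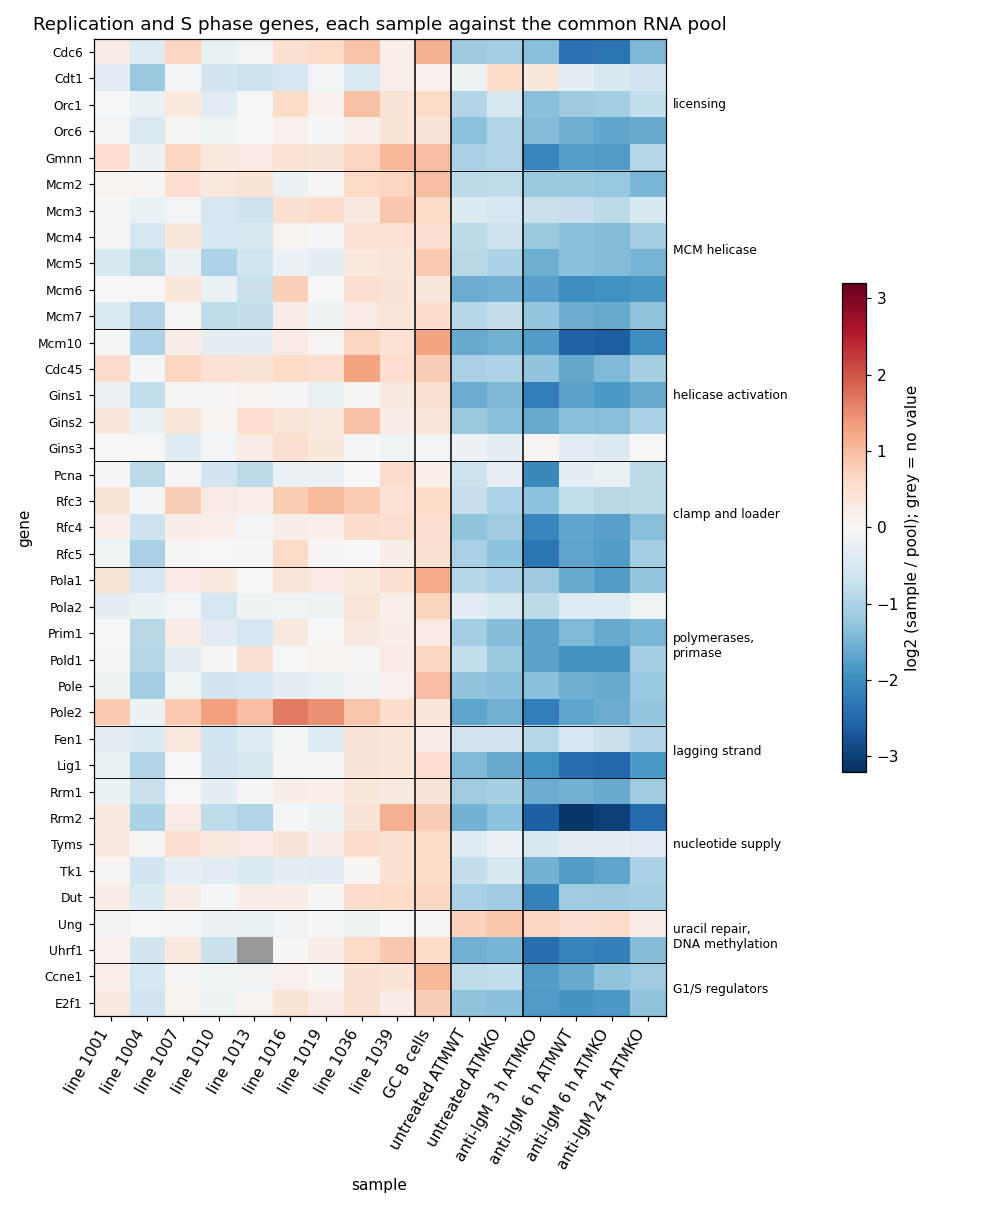
Log2 ratio of each of 16 samples to the common RNA pool (columns) for the 37 members tested (rows, grouped by role), with red above and blue below the pool. Lymphoma lines and GC cells lie near or above the pool for most genes, the splenic B cell samples lie below it, and Ung shows the opposite order.

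Over the 37 members, the median log2 ratio to the pool was -1.03 and -1.01 in untreated ATMWT and ATMKO splenic B cells, lay between -0.56 (line 1004) and 0.41 (lines 1036 and 1039) in the lymphoma lines, and was 0.60 in GC B cells. After anti-IgM it was -1.55 at 3 h, -1.56 and -1.60 at 6 h in ATMWT and ATMKO cells, and -1.14 at 24 h. The lymphoma lines and the GC sample therefore stood above every splenic sample on this median, and no stimulated sample stood above an untreated one.

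The first comparison asks how the lymphoma lines differ from untreated splenic B cells. Of 37 members, 26 were higher in the lymphoma lines and 1, Ung, was lower, with a median difference of 1.14 (log2). Over all 21560 genes tested, 18.4% were higher and 24.7% lower, with a median of -0.01. The 9 lines all lay above both untreated samples for 25 of the 36 members measured in every line, against 19.8% of all genes.

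Among the licensing genes, 4 of 5 rose. Cdc6, which helps load the helicase, was -1.17 and -1.11 in the untreated ATMWT and ATMKO samples and ran from -0.40 (line 1004) through a median of 0.20 to 0.92 (line 1036) in the lymphoma lines. The groups did not overlap, and the difference was 1.40 ± 0.29 (SE), adjusted p = 0.0019. A second, dimmer Cdc6 probe gave a difference of 0.38, so that the size rests on the probe. Geminin (Gmnn), the inhibitor of Cdt1, was -1.04 and -0.97 in the untreated samples against -0.18 to 1.06 (median 0.46) in the lines, a difference of 1.47 ± 0.23 (adjusted p = 0.00020). Orc1, the largest subunit of the origin recognition complex, rose by 0.92 ± 0.27 (adjusted p = 0.016) and Orc6 by 1.15 ± 0.18 (adjusted p = 0.00024). Cdt1 did not follow them. It read -0.16 and 0.58 in the untreated samples and -1.19 to 0.16 (median -0.47) in the lines, so that the groups overlapped, with a difference of -0.63 ± 0.29 (adjusted p = 0.093).

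The 6 subunits of the MCM helicase were higher by 0.57 to 1.68, but only Mcm2 and Mcm6 passed the test. Mcm2 was -0.85 and -0.80 in the untreated samples and -0.19 (line 1016) to 0.68 (line 1039) in the lines, with a median of 0.32. Every line lay above both untreated samples, and the difference was 1.12 ± 0.20 (adjusted p = 0.00067). Mcm5 was -0.88 and -1.01 in the untreated samples and -0.99 (line 1010) to 0.40 (line 1039) in the lines. These ranges overlapped, and its difference of 0.61 ± 0.31 did not pass (adjusted p = 0.13). Mcm6 showed the largest difference of the helicase (1.68 ± 0.29, adjusted p = 0.00045) and Mcm3 the smallest (0.57 ± 0.33, adjusted p = 0.18), although a second Mcm3 probe gave 1.44.

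Of the genes that activate the helicase, Gins2, Mcm10, Cdc45 and Gins1 rose by 1.60, 1.59, 1.57 and 1.46 (adjusted p between 5.5e-05 and 0.0014). Gins3, another subunit of the GINS complex, differed by 0.30 ± 0.19 (adjusted p = 0.22). For Cdc45, which travels with the helicase, every line, from -0.04 to 1.26 with a median of 0.54, lay above the untreated values of -1.04 and -0.99.

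Among the polymerases and primase, 5 of 6 rose. Pole2, the second subunit of the leading-strand polymerase epsilon, had the largest difference of all members. Its probe lies at chr12:70307465-70308864 (mm9). It was -1.68 and -1.55 in the untreated samples and -0.18 (line 1004) to 1.67 (line 1016) in the lines, with a median of 0.89, and the difference was 2.54 ± 0.35 (adjusted p = 8.5e-05). Pole, the catalytic subunit of the same enzyme, was -1.28 and -1.33 against -1.12 to 0.13 (median -0.24) and rose by 0.96 ± 0.24 (adjusted p = 0.0062). Pola2, the accessory subunit of polymerase alpha, changed least, by 0.32 ± 0.18 (adjusted p = 0.18), while its partners Pola1 and Prim1 rose by 1.19 and 1.16.

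The sliding clamp gene Pcna did not move with its loader. Pcna was -0.69 and -0.27 in the untreated samples and -0.86 to 0.56 (median -0.18) in the lines, overlapping, with a difference of 0.24 ± 0.31 (adjusted p = 0.56). The loader genes Rfc3, Rfc4 and Rfc5 rose by 1.39, 1.35 and 1.14 (adjusted p = 0.00045, 0.00054 and 0.0059), but a second Rfc5 probe differed by -0.04. On the lagging strand, the ligase gene Lig1 rose by 1.34 ± 0.29 (adjusted p = 0.0026), while the flap nuclease gene Fen1, at -0.58 and -0.61 in the untreated samples and -0.63 to 0.42 in the lines, differed by 0.47 ± 0.26 (adjusted p = 0.17).

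Nucleotide supply genes rose in 4 of 5 cases. Rrm2, the subunit of ribonucleotide reductase whose level follows S phase, was -1.52 and -1.30 in the untreated samples and varied most between lines, from -1.01 (line 1004) to 1.14 (line 1039) with a median of -0.05. All lines lay above the untreated values, and the difference was 1.31 ± 0.46 (adjusted p = 0.036). Tyms, which makes thymidylate, varied little, from 0.08 to 0.57 (median 0.32) against -0.39 and -0.19, with a difference of 0.64 ± 0.12 (adjusted p = 0.0012). Tk1, the salvage thymidine kinase, was -0.61 to 0.49 in the lines against -0.76 and -0.50, and its difference of 0.44 ± 0.23 did not pass (adjusted p = 0.14), whereas a second Tk1 probe above background on all arrays gave 1.23. Rrm1 and Dut rose by 1.08 and 1.25.

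Ung, the glycosylase that removes uracil from DNA, was the 1 member that fell. Its probe lies at chr5:114588731-114588790 (mm9, from the array files). It was 0.74 and 0.88 in the untreated samples and stayed within -0.21 to -0.01 (median -0.11) in the 9 lines, a difference of -0.91 ± 0.09 (adjusted p = 4.9e-06). Its SD over the lines, 0.07, was the smallest of the members, and every line lay below both untreated samples, as for 24.4% of all genes. Uhrf1, which reads hemimethylated DNA behind the fork, had no value in line 1013 because its spot was an outlier there. In the other 8 lines it was -0.72 to 0.86 against -1.54 and -1.49 untreated, and it rose by 1.62 ± 0.34 (adjusted p = 0.0025). The G1/S regulators both rose. Ccne1, which activates CDK2, was -0.54 to 0.50 (median 0.08) against -0.82 and -0.79, a difference of 0.87 ± 0.21 (adjusted p = 0.0057), and the transcription factor gene E2f1 was -0.60 to 0.48 against -1.28 and -1.34, a difference of 1.43 ± 0.22 (adjusted p = 0.00020).

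The 3 slides that held these arrays each carried both groups, and the median difference over the members within a slide was 0.89, 1.15 and 1.33. Neutrophil, erythroid and macrophage markers were lower in the lymphoma lines for all 16 genes measured, with log2 differences from -9.28 to -1.66, and their part in the result was not tested.

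**Figure D2:**
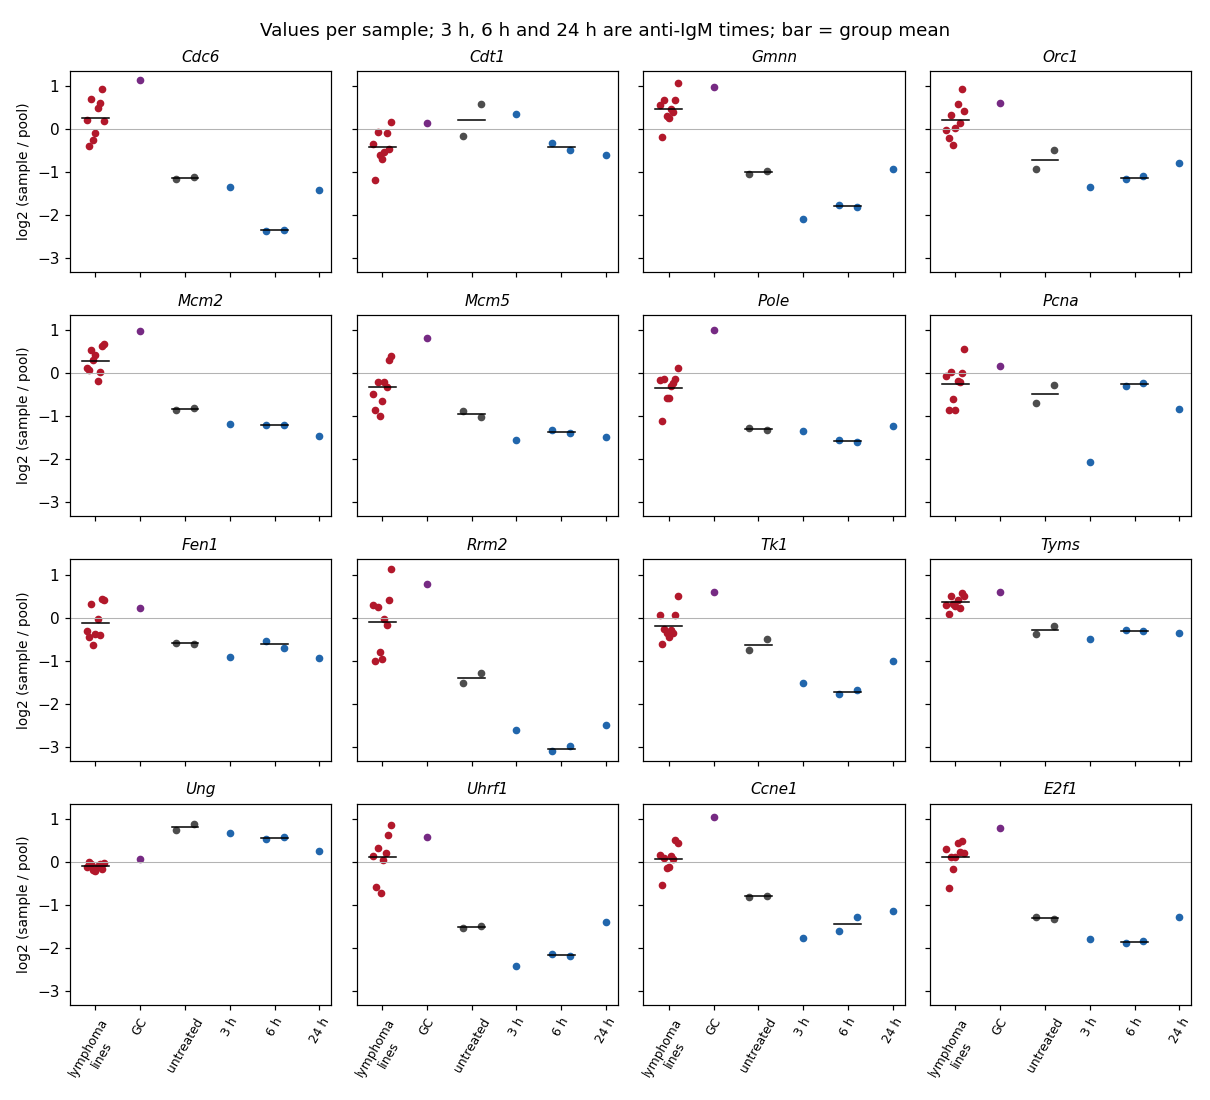
Log2 ratio to the pool for 16 members (1 panel each), with 1 point per sample and a bar at the mean of groups with more than 1 sample. The 9 lymphoma lines and the GC sample lie above the untreated and anti-IgM samples for most genes, while Ung lies lower in the lines (-0.21 to -0.01) than in the untreated samples (0.74 and 0.88).

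The values spread over the lines. The median SD over the 9 lines was 0.36 for the members against 0.24 for all genes tested, and it reached 0.72 for Rrm2. Line 1004 held the lowest value for 27 of 37 members, with a median over the members of -0.56, followed by line 1010 with -0.20. Lines 1039 and 1036 held the highest value for 16 and 14 members. The arrays of a line repeated on 2 arrays differed by a median of 0.10 for line 1001 and 0.11 for line 1010 but by 0.52 for line 1039. These are technical repeats, so the spread between cultures of 1 line was not measured and the difference between lines was not tested. In that line the median over the members was 0.13 on the first array and 0.70 on the second, so that its rank rests on which array is read. Pole2 was highest in line 1016 (1.67) and next in line 1019 (1.46).

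Against GC B cells, which come from dividing cells of an immune response, the lymphoma lines read lower for 35 of 37 members, with a median difference of -0.52 (median of all genes -0.04). Of these, 4 passed the test and none was called higher, where 8.91% of all genes were lower and 7.2% higher. Pole was 1.00 in GC cells, above all lines, a difference of -1.34 ± 0.32 (adjusted p = 0.015). Pola1 differed by -1.01 ± 0.29 (adjusted p = 0.034), Ccne1 by -0.99 ± 0.29 (adjusted p = 0.036), and Pola2 by -0.83 ± 0.24 (adjusted p = 0.036). Pole, Pola1 and Ccne1 had no value on the first GC array, so their GC level rests on the other arrays. On other probes of the same genes the lines were not clearly lower than GC cells, with differences of 0.08 and -0.07 for Pole and 0.28 for Ccne1. The GC sample was a single sample on 3 arrays, and its spread was taken from the other groups. Without the first GC array the median became -0.79, and 11 members were called lower, against 12.4% of all genes. Those were Pole, Pola1, Pola2, Ccne1, E2f1, Gmnn, Gins1, Mcm5, Tk1, Tyms and Dut. Without the first array of line 1039, 2 members were lower. With the first technical repeat of each sample alone the median over the 28 members measured was 0.02, which turns the direction, and 1 member, Gins1, was called higher, by 1.08. On the slide that held the first GC array the member median was -0.18 over 28 members, and on the slide that held the others it was -0.64. Every line lay below the GC sample for 19 of 36 members, against 25.4% of all genes.

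The members that did not pass this test with all GC arrays can still be read by role. Among licensing genes Cdc6 was 1.13 in GC cells, above all lines (difference -0.87 ± 0.39, adjusted p = 0.16), Gmnn 0.98 (-0.51), Orc1 0.61 (-0.40) and Cdt1 0.13 (-0.55). In the helicase Mcm2 was 0.99 (-0.69) and Mcm5 0.83 (-1.16 ± 0.42, adjusted p = 0.079), and Mcm6 differed least of the 6 (-0.22). Mcm10 read 1.26 in GC cells, a difference of -1.25 ± 0.43 (adjusted p = 0.065), and Gins2 0.38, a difference of -0.04. The order of these differences rests on different arrays. Cdc6, Cdt1, Mcm10 and Rrm2 had no value on the first GC array. Mcm6 read -0.25 there and 0.69 and 0.59 on the others, and Gins2 -0.02 there and 0.59 and 0.56 on the others. Pcna was 0.17 (-0.41), Fen1 0.22 (-0.35), Rrm2 0.78 (-0.88), Tyms 0.60 (-0.25), Tk1 0.60 (-0.79), Uhrf1 0.58 (-0.48) and E2f1 0.79 (-0.67). Ung was 0.06 in GC cells, close to the lines (-0.16 ± 0.12, adjusted p = 0.39), and Pole2 and Gins3 had the positive differences, that of Pole2 being the larger (0.54 ± 0.47, adjusted p = 0.48).

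GC B cells against untreated splenic B cells gave larger differences of the same kind. Here 28 of 37 members were higher and 1, Ung, lower, with a median of 1.69, where 8.29% of all genes were higher and 10.7% lower. Both comparisons with untreated cells share those 2 samples, so their values are set side by side and not counted as separate support. Mcm10 differed by 2.84 ± 0.50 (adjusted p = 0.0021), at 1.26 in GC cells against -1.61 and -1.55. It had no value on the first GC array, as was so for Pole, Cdc6 and Pola1, so the order of the members rests on different arrays. Without that array Gins1, which read -1.21 there and 1.30 and 1.35 on the others, also differed by 2.84. Pole (2.30), Cdc6 (2.26), Pola1 (2.20), Uhrf1 (2.10), E2f1 (2.10), Lig1 (2.05), Gins1 (2.00), Gmnn (1.98), Ccne1 (1.86), Mcm2 (1.81), Mcm5 (1.77), Orc1 (1.33), Tk1 (1.23) and Tyms (0.89) also rose. The order rests on the probe as well. Other probes gave smaller differences for Pole (1.12 and 0.44), Ccne1 (0.68), Cdc6 (1.72), Uhrf1 (1.55) and Gmnn (1.56). For Tk1 they gave 1.57 and -0.14. The call of Orc1 was lost in 14 of 25 alternatives and that of Tk1 in 7 of 25. Rrm2 had a difference of 2.19 ± 0.72 that just missed the threshold (adjusted p = 0.052), and Fen1 (0.82), Pcna (0.65) and Cdt1 (-0.08) did not pass. Ung fell by 0.75 (adjusted p = 0.0025). Without the first GC array 31 members were higher and 1 lower, with a median of 1.86, and 11.2% of all genes were higher. Without the untreated ATMKO sample fewer members were called higher, in a fit that leaves 1 untreated sample. With the first technical repeat of each sample alone 5 of the 28 members measured were higher and 1 lower, with a median of 0.99.

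**Figure D3:**
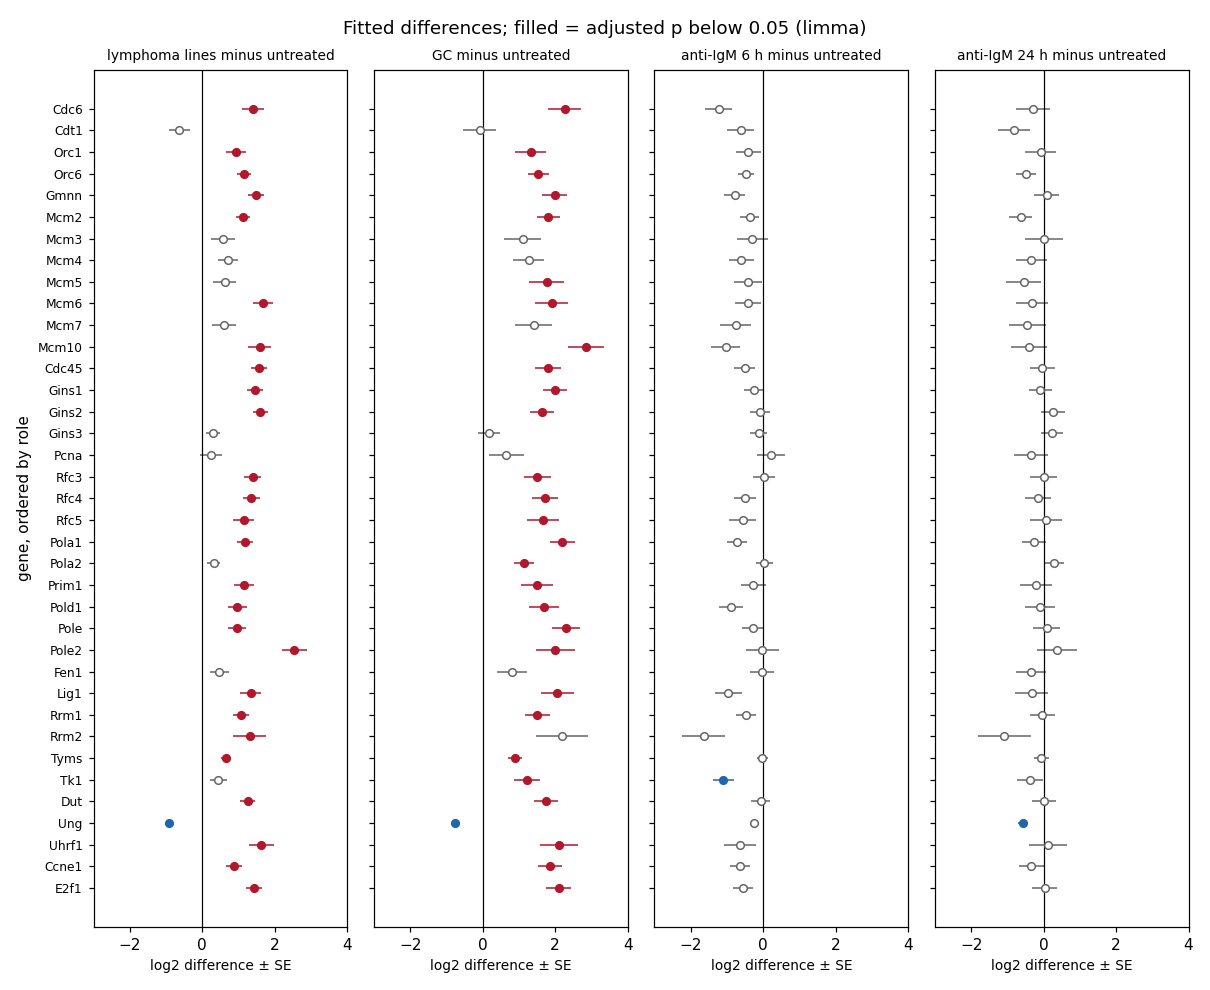
Fitted log2 difference from untreated splenic B cells for each of the 37 members, with its SE, in 4 comparisons. Filled points passed an adjusted p of 0.05, with 26 higher and 1 lower in lymphoma lines, 28 higher and 1 lower in GC cells, and 1 lower each at 6 h and 24 h of anti-IgM.

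The next comparisons follow splenic B cells stimulated through the receptor for up to 24 h. At none of the 3 times was a member called higher than in untreated cells, where 2.64%, 5.31% and 2.01% of all genes were called higher at 3, 6 and 24 h. Lower calls of the fit with all groups numbered 0 at 3 h, 1 at 6 h (Tk1) and 1 at 24 h (Ung), against 5.3%, 4.44% and 1.21% of all genes. At an unadjusted p below 0.05 the 3 h counts were 0 higher and 7 lower. That fit takes its spread mainly from the 9 lymphoma lines. Without line 1004, 6 members were called lower at 3 h and 6 at 6 h, and without line 1039, 3 and 2. The share of all genes called in those fits is not given, so these counts show only that the calls depend on the lines kept. In the splenic samples alone, a fit added after seeing the data, 12 members were lower at 3 h, against 14.1% of all genes. In a fit of the untreated and 6 h samples alone, with genotype as a term, 19 members were lower and 0 higher, where 17% of all genes were lower and 12.4% higher.

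At 3 h the single ATMKO sample lay below both untreated samples for 35 of 37 members, against 48.9% of all genes, with a median difference of -0.43 (all genes -0.08). Pcna, the clamp, showed the largest difference, at -2.06 against -0.69 and -0.27 untreated (-1.58, adjusted p = 0.065). Dut read -2.15 against -1.03 and -1.13, and Gmnn -2.08 against -1.04 and -0.97. Rfc5 read -2.31 against -1.04 and -1.32, Gins1 -2.21 against -1.60 and -1.44, and Pold1 -1.70 against -0.80 and -1.19. Rrm2 was -2.61 and Uhrf1 -2.42 at 3 h. Nearer to the untreated values were Cdc6 (-1.34), Mcm2 (-1.19), Mcm5 (-1.55), Pole (-1.34), Tyms (-0.50), Fen1 (-0.92), E2f1 (-1.80) and Orc1 (-1.34). Ccne1 (-1.78) and Tk1 (-1.51) differed by -0.97 and -0.88. Cdt1 was 0.34, between the untreated values, and Ung 0.68.

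At 6 h both samples lay below both untreated samples for 31 of 37 members, against 38.5% of all genes, with a median difference of -0.47 (all genes -0.05). Rrm2 was -3.11 and -2.99 in ATMWT and ATMKO cells against -1.52 and -1.30 untreated, a difference of -1.64 that did not pass in the fit with all groups (adjusted p = 0.10) and passed in the fit of splenic samples alone (adjusted p = 0.0026). Cdc6 was -2.37 and -2.35 against -1.17 and -1.11 (-1.22, adjusted p = 0.059 and, in splenic samples alone, 0.0036). Mcm10 was -2.60 and -2.63 against -1.61 and -1.55. Tk1, at -1.79 and -1.68 against -0.76 and -0.50, fell by 1.101 in the fit with all groups (adjusted p = 0.033). The samples of both genotypes lay close together for each of these genes.

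Other members differed less at 6 h. Among them, Lig1 was -2.43 and -2.52 against -1.41 and -1.61 untreated, and Pold1 -1.90 and -1.88 against -0.80 and -1.19. Gmnn was -1.77 and -1.82, E2f1 -1.88 and -1.84, Uhrf1 -2.15 and -2.18, Ccne1 -1.61 and -1.29, Orc1 -1.17 and -1.10, and Mcm2 -1.20 and -1.20, each below both untreated samples. Pcna, unlike at 3 h, was -0.30 and -0.22, overlapping the untreated values. Fen1 (-0.54 and -0.71), Tyms (-0.30 and -0.32) and Pole2 (-1.68 and -1.59) overlapped the untreated values, Pole (-1.55 and -1.60) lay just below them, and Mcm5 read -1.33 and -1.40. Cdt1 was -0.32 and -0.50, and Ung 0.52 and 0.57, both below untreated. The size of the 6 h shift depended on the normalization: with each array centred on its median in place of loess, the member median was -0.03 at 6 h, where the median of all genes was 0.15.

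At 24 h the single ATMKO sample was again near the untreated level on the median over all members, with a difference of -0.15 (all genes -0.04). This did not hold for every role. The 6 MCM subunits had a median difference of -0.39 at 24 h, against -0.42 at 6 h. The 24 h sample lay below both untreated samples for 21 members and above both for 8, against 43.5% and 35.7% of all genes. Rrm2 (-2.49), Cdt1 (-0.61) and Mcm2 (-1.46) lay furthest below untreated, with differences of -1.08, -0.82 and -0.63, none of which passed. Gmnn (-0.92), E2f1 (-1.28), Uhrf1 (-1.39), Pole (-1.22) and Pole2 (-1.24) were above both untreated samples. Cdc6 (-1.43), Mcm5 (-1.49), Orc6 (-1.62), Tk1 (-1.01), Ccne1 (-1.14), Pcna (-0.83) and Fen1 (-0.95) were also below both, while Orc1 (-0.80) and Tyms (-0.35) lay between them. Ung, at 0.25 against 0.74 and 0.88, fell by 0.56 (adjusted p = 0.043), a call that was lost in 15 of 25 alternatives (adjusted p from 0.020 to 0.64). The 24 h sample exceeded both 6 h samples for 27 of 37 members (46.9% of all genes), with a median difference of 0.34. None of the members passed between 24 h and 6 h in the fit with all groups (3.32% of all genes higher and 4.73% lower). At an unadjusted p below 0.05, 1 was higher and 1 lower. In a fit of the splenic samples alone, added after seeing the data, 9 were called higher. That fit also called more of all genes, 12.7% higher and 9.59% lower. With median centring that 24 h to 6 h median was 0.02 (all genes -0.16).

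Erythroid markers moved with these times as well. Their median over 5 genes was 1.67 in untreated cells and 0.90, -0.24 and -1.58 at 3, 6 and 24 h, while the macrophage median was 0.81 in untreated cells and -0.01, -0.58 and 1.23 at those times. The macrophage genes split at 24 h. Of the 5, 2 were lower than untreated, Vcam1 (-2.21 against 2.21) and C1qa (0.28 against 1.42). Csf1r, Adgre1 and Cd14 were higher, Adgre1 most (2.24 against 0.06). The B cell markers Cd79a, Cd79b, Ms4a1, Pax5 and Cd22 were lower than in untreated cells at 3 h and 6 h. Ms4a1, which encodes CD20, fell by 1.78 at 3 h (adjusted p = 0.030) and by 1.79 at 6 h (adjusted p = 0.010). Its level was 0.48 in untreated cells, -1.31 at both times and -0.13 at 24 h. Cd79a, a chain of the B cell receptor complex, read 0.87 in untreated cells, -0.63 at 3 h, -0.68 at 6 h and 0.70 at 24 h. At 3 h and 6 h Cd79b read -0.48 and 0.03 against 0.83 untreated, Pax5 -0.51 and -1.37 against 0.01, and Cd22 -2.07 and -2.45 against -1.56. Their part in the result was not tested.

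Lymphoma lines also stood above the 24 h stimulated sample, with 25 members higher, 1 (Ung) lower and a median of 1.25, where 13.5% of all genes were higher and 18.2% lower. Every line lay above the 24 h sample for 30 of 36 members, against 27.5% of all genes. Rrm2 differed by 2.39 (adjusted p = 0.011), Pole2 by 2.17 (adjusted p = 0.0041), Mcm6 by 1.99 (adjusted p = 0.0020), Mcm2 by 1.75 (adjusted p = 0.00047) and Cdc6 by 1.69 (adjusted p = 0.0062). Gmnn (1.39), E2f1 (1.40), Uhrf1 (1.50), Ccne1 (1.21) and Tyms (0.70) also rose, whereas Orc1 (1.00), Mcm5 (1.16), Tk1 (0.82), Pole (0.87), Fen1 (0.82), Pcna (0.59) and Cdt1 (0.18) did not pass. Ung differed by -0.35 (adjusted p = 0.036). The control of this comparison was 1 sample.

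ATM genotype made no detectable difference in splenic B cells. Over 6 samples with treatment as a term, 0 members passed in either direction and the median difference ATMKO minus ATMWT was 0.01, with members between -0.24 and 0.28. At an unadjusted p below 0.05, 0 members were higher and 0 lower. Over all genes 0% were higher and 0.0139% lower. Only the untreated and 6 h samples hold both genotypes, so the test rests on those, with 1 residual degree of freedom. With 2 ATMWT samples this comparison has little power. It also averages over treatment: Cdt1 read -0.16 in ATMWT and 0.58 in ATMKO cells untreated, but -0.32 and -0.50 at 6 h.

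The last comparison follows BTK inhibition in the lymphoma lines 178119 and 28545. With loess normalization, the member median of PCI-32765 over DMSO was 0.02 at 1 h, 0.03 at 3 h, -0.04 at 6 h and -0.59 at 24 h, whereas with median centring it was 0.86, 1.00, 0.46 and -0.02. Median centring moved all genes too, to medians of 0.62, 0.63, 0.26 and 0.32, so that relative to all genes the members stood at 0.24, 0.37, 0.20 and -0.34. The direction at 24 h relative to all genes was thus lower under both scalings, and the directions at 1, 3 and 6 h were not settled.

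At 24 h, 25 of 37 members were called lower and 1, Ung, higher with loess, where 12.9% of all genes were lower and 12.7% higher. With median centring 0 members were lower and 3 higher, and the share of all genes called is not given for that scaling. Both lines were below 0 for 33 members with loess, against 35.9% of all genes. Line 178119 read lower at 24 h with loess, its value being below that of line 28545 for 34 members (43.1% of all genes), with medians of -0.89 and -0.30 in lines 178119 and 28545. The count rests on line 178119, since most of the lower calls were lost without its 24 h array. Without that of line 28545, the array with 85.5% of spots above background, more members were called lower. Each of these fits leaves 1 array at 24 h. A test of the line difference over all times called 0 members and 0 of all 19494 genes (at an unadjusted p below 0.05, 2 members were higher in line 28545 and 0 lower).

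The drug values that follow are loess-normalized, and median centring shrinks or turns those at 24 h as just given. With loess, licensing genes fell at 24 h: Orc1 to -1.01 in line 178119 and -0.80 in line 28545 (mean -0.91 ± 0.11 SE, adjusted p = 0.00067), Cdc6 to -1.29 and -0.46 (-0.87, adjusted p = 0.0054), and Cdt1 to -0.96 and -0.43 (-0.70, adjusted p = 0.0091). Gmnn was -0.75 and -0.04 and did not pass (adjusted p = 0.079). Orc1 was the 1 licensing gene already lower at 6 h, at -1.11 and -0.79 (-0.95, adjusted p = 0.00043), after 0.27 and 0.22 at 1 h and -0.23 and -0.35 at 3 h. Both lines thus gave Orc1 the same sign at every time.

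In the helicase, Mcm5 was -0.65 and -0.19 at 24 h (-0.42 ± 0.12, adjusted p = 0.026) after 0.39 and 0.32 at 1 h, and Mcm2 was -0.40 and -0.16 (adjusted p = 0.11). Mcm3 and Mcm7 also passed, with means of -0.51 and -0.50, but Mcm3, Mcm5 and Mcm7 had positive means with median centring (0.08, 0.15 and 0.13). Mcm6 was -0.96 in line 178119 and 0.06 in line 28545. The activating genes Mcm10, Gins2, Cdc45 and Gins1 fell by 0.84, 0.84, 0.79 and 0.69, while Gins3 was 0.12 and 0.10.

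For the polymerases, Pole was -0.88 and -0.39 at 24 h (-0.63, adjusted p = 0.0076) and Pole2 -1.07 and -0.54 (-0.80, adjusted p = 0.0033). Pold1, the catalytic subunit of polymerase delta, was 0.10 and 0.01. Pola2 was 0.59 and 0.43 at 1 h and -0.62 and -0.48 at 6 h (-0.55, adjusted p = 0.0054), and -0.49 and -0.26 at 24 h (-0.37, adjusted p = 0.028; 0.01 with median centring). Pcna was -0.92 and -0.09 at 24 h and did not pass (-0.50, adjusted p = 0.060), while Rfc4 (-1.13 and -0.51) and Rfc5 (-1.03 and -0.53) did, although the second Rfc5 probe gave 0.31. Fen1 (-1.09 and -0.44) and Lig1 (-1.16 and -0.68) both fell, Lig1 with the largest mean of all members (-0.92, adjusted p = 0.0014).

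Among nucleotide supply genes, Rrm1 (-1.05 and -0.50), Dut (-0.96 and -0.36), Tk1 (-0.77 and -0.32) and Rrm2 (-0.89 and -0.18) passed at 24 h, the last with a mean of -0.54 (adjusted p = 0.036; 0.08 with median centring). Tyms was -0.48 and -0.13 (adjusted p = 0.090) after 0.69 and 0.35 at 1 h. Uhrf1 was -0.75 and -0.43 (-0.59, adjusted p = 0.014), Ccne1 -0.43 and -0.06 (adjusted p = 0.13) and E2f1 -0.40 and -0.23 (adjusted p = 0.084). Ung again ran the other way, at 0.56 and 0.39 at 6 h (0.48, adjusted p = 0.029) and 0.84 and 0.34 at 24 h (0.59, adjusted p = 0.012).

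The median change from 1 h to 24 h did not turn with the scaling, at -0.59 with loess and -0.96 with median centring (all genes -0.21 with median centring). With loess, 10 members were lower at 24 h than at 1 h (3.93% of all genes lower and 3.95% higher). With median centring 16 were lower, and the share of all genes called is not given for that scaling. Orc1 (-1.15, adjusted p = 0.0037), Cdc6 (-0.90), Pola2 (-0.88), Tyms (-0.82), Mcm7 (-0.81), Lig1 (-0.79), Mcm5 (-0.78), Tk1 (-0.74), Rrm1 (-0.73) and Pole2 (-0.73) made up the loess calls. Leaving out single arrays moved this count between 1 (without either array of line 178119 at 1 h or 24 h) and 25 (without line 28545 at 24 h). At 1 h and 3 h no member was called with loess, where 0.449% and 3.9% of all genes were higher and 0.547% and 4.25% lower (at an unadjusted p below 0.05, 4 members were higher and 1 lower at 1 h, and 5 higher and 1 lower at 3 h). At 6 h Orc1 and Pola2 were lower and Ung and Pold1 higher, against 12.4% and 13.1% of all genes. With median centring 35 and 36 members were higher at 1 h and 3 h, and 13 higher and 1 lower at 6 h. Those counts cannot be read as particular to the members. The median of all genes rose too under that scaling, and the share of all genes called is not given for it.

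**Figure D4:**
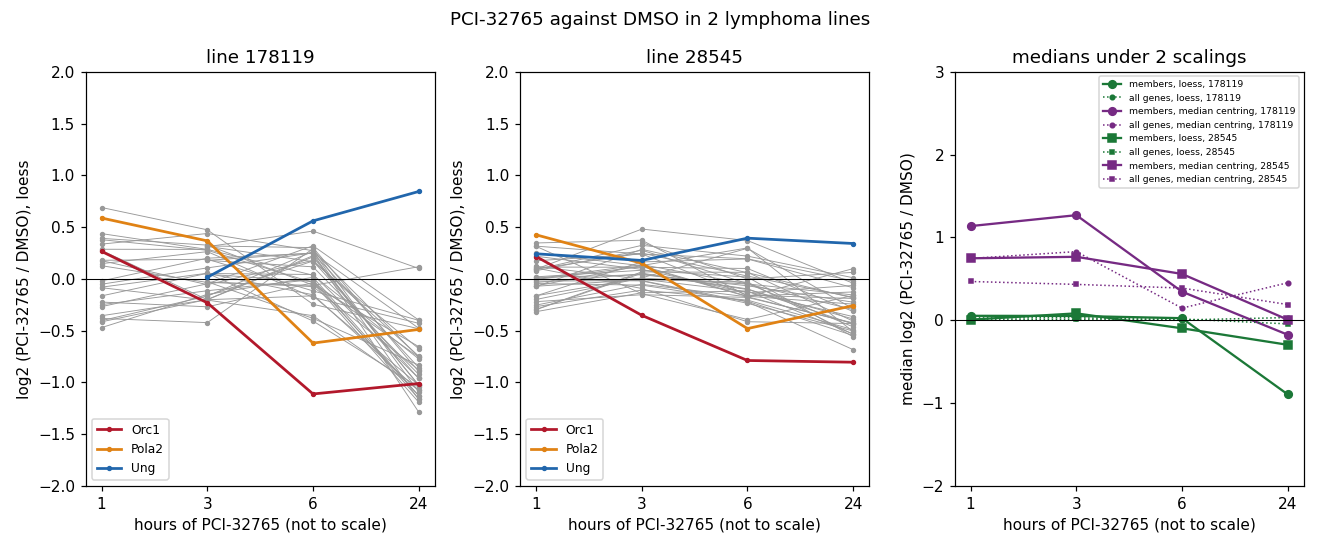
Log2 ratio of PCI-32765 to DMSO by time in line 178119 (left) and line 28545 (middle) for the 37 members after loess, and the medians of members and of all genes under loess and median centring (right). After loess the member median at 24 h is -0.89 in line 178119 and -0.30 in line 28545, and with median centring it is -0.17 and 0.01 while all genes stand at 0.45 and 0.19.

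A list of 48 other replication genes and one of 25 mitosis genes (24 measured) were set beside the members. Between lymphoma lines and untreated cells, 27 of the other replication genes were higher and 2 lower (median 0.77), with Prim2, the large primase subunit, highest at 4.13 and Mcmbp, an MCM binding protein, nearest to 0 at 0.02. All 24 mitosis genes were higher (median 1.75), from Cenpf (0.78) to Ccnb1 (2.62). In GC cells against untreated, 28 other replication genes and 23 mitosis genes were higher, with medians of 1.02 and 2.36. At 6 h of anti-IgM, 1 of the other replication genes was higher and 4 lower (median -0.17), and 2 mitosis genes were lower (median -0.79). After 24 h of PCI-32765, 29 other replication genes were lower and 1 higher (median -0.43), and 22 of 24 mitosis genes were lower (median -0.64), with loess; median centring moved all genes up by 0.32 at that time. The difference between lists was not tested.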

How the data were processed

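RNA was measured on 32 Agilent 2-colour mouse arrays of 62976 spots. Cy5 carried the sample or PCI-32765 RNA and Cy3 the pool or DMSO RNA, with no dye swap, so dye bias is not removed from the ratios. A bias equal on all arrays would cancel between pool samples, but not in PCI-32765 over DMSO at a single time. The deposited intensity columns are the scanner's, extracted by the authors with Feature Extraction 10.1.1.1 per the file headers, and 9.1 with limma per the submitters' processing notes. The deposited series matrix and the scanner's own log ratio (both log10 values, per the file headers and the values) served as alternatives. Intensities were corrected with normexp (offset 50) and normalized by loess within each array in limma 3.58.1 (R 4.3.3), leaving control and outlier spots at weight 0. Spots of a probe and technical repeats were averaged, giving 16 pool samples. A probe stayed in a fit if, in at least a 0.5 share of its arrays, 1 or both channels stood well above background, and no member probe was saturated. Gene names were updated through RefSeq accessions for 2838 of 27235 matched probes (55681 in all). Models used lmFit and eBayes with Benjamini-Hochberg adjustment at 0.05 over all genes tested: 1 mean per group (10 residual degrees of freedom), genotype plus treatment over 6 splenic samples, and 1 mean per time for PCI-32765 (4 residual degrees of freedom). Each PCI-32765 line was treated at all 4 times, so the line pairs these arrays. Methods were tested on simulated data. The genes described in the main comparisons were Mcm2, Mcm5, Cdc6, Cdt1, Orc1, Pcna, Rrm2, Tyms, Tk1, Pole, Fen1, Ung, Uhrf1, Ccne1, Ccne2, E2f1 and Gmnn. Other members were added by the size of their change within a role, but not every role's largest and smallest change is named in every comparison. The members and lists were chosen with earlier results of these data known. The number of arrays limits the precision. Alternatives covered offset, scaling, filter, probe choice, slide, repeats and single samples left out.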

Additional observations from a re-analysis of the deposited data

Results flagged for a closer look

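Over the 9 lymphoma lines, 37 members were checked for a line far from the rest, and chance gives such a line in about 1 of 20 independent groups. The members were not independent: over the lines, the correlation of a member with the median of the others had a median of 0.83. The count below can therefore not be set against that rate. Line 1004 stood apart for 3 members. Its Gins1 value was -0.78, with the other lines between -0.23 and 0.28. Its Rfc5 value was -1.03, with the others between -0.13 and 0.60. Its Pola1 value was -0.56, with the others between -0.02 and 0.49. Line 1004 was measured on 1 array with 55.1% of spots above background.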

How the results depend on the processing

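The array of the GC sample, line 1039 and line 28545 at 24 h that stand apart, single samples at 3 h and 24 h of anti-IgM, and 1 array per line and time limit these results; the cause of each change below was not tested.
Median centring moved all genes by over 0.1 in several comparisons. It gave 7 calls for lymphoma against GC, a median of 2.00 for GC against untreated, 4 calls and -0.75 at 3 h of anti-IgM, 0 and -0.0265 at 6 h, 0 calls at 24 h, and 0.0209 for 24 h against 6 h. For PCI-32765 it gave 36 calls and 0.54 over all times, 35 and 0.86 at 1 h, 36 and 1.00 at 3 h, 14 and 0.46 at 6 h, 3 and -0.0177 at 24 h, 16 and -0.96 for 24 h against 1 h, and -0.0488 between lines. At 24 h it left 17 members positive, against 3 with loess, among them Mcm3 (0.0826), Mcm5 (0.15), Mcm7 (0.13), Pola2 (0.0139) and Rrm2 (0.0757).
The scanner log ratio and the deposited series matrix each gave 2 calls for lymphoma against GC, 0 at 6 h and 0 at 24 h of anti-IgM, and for PCI-32765 8 over all times, 2 at 6 h and 2 for 24 h against 1 h, with medians of -0.0140 and -0.0133 at 1 h, and 0.0551 and 0.0548 at 3 h.
With the first technical repeat alone, lymphoma against GC had 1 call and a median of 0.0175 (Gins1 1.08), GC against untreated 6 and 0.99, and 24 h of anti-IgM 0. Lymphoma against GC had 2 calls with the mean over all probes and 1 with anti-IgM times pooled. An offset of 16 gave 2 calls at 6 h and 0 at 24 h of anti-IgM, and a slide block 2 at 6 h. Splenic samples alone gave 12 calls at 3 h, 19 at 6 h and 9 for 24 h against 6 h, and untreated and 6 h samples alone 19. A single mean for all PCI-32765 times gave 5 calls, and leaving out genes with a missing value, added after seeing the data as was the fit of splenic samples alone, 2 at 6 h.
Leaving out 1 sample gave 22 to 28 calls for lymphoma against untreated (median 1.098 to 1.21), 2 to 11 against GC (-0.79 to -0.43) and 22 to 30 against 24 h (1.19 to 1.32). It gave 19 to 31 for GC against untreated, or 32 without the first GC array (1.69 to 1.86), 0 to 6 at 3 h (-0.45 to -0.43), 0 to 6 at 6 h (-0.52 to -0.41), 0 to 1 at 24 h (-0.20 to -0.13) and 0 for 24 h against 6 h (0.31 to 0.35). For PCI-32765 it gave 9 to 21 over all times (-0.20 to -0.0361), 0 at 1 h (0.0077 to 0.0540), 0 to 2 at 3 h (0.0308 to 0.0835), 1 to 6 at 6 h (-0.0968 to 0.0253), 4 to 32 at 24 h (-0.89 to -0.30), 1 to 25 for 24 h against 1 h (-0.87 to -0.29) and a line difference of -0.0167 to 0.20. Where this left 1 sample in a group, that sample was assumed to vary like the other groups. With the cell line as a replicate block 26 members were called at 24 h of PCI-32765, 3 at 6 h, 9 for 24 h against 1 h and 15 over all times, so the pairing moved no count by much.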
